A study of Caenorhabditis elegans with 4 samples.

Results

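The regions described here are the 1294 binding regions that the series' combined list places on chromosome II of the nematode Caenorhabditis elegans, out of 8678 regions on all 6 chromosomes. They were taken by the chromosome field of that list alone, so no measured value chose them. The question, addressed by sequencing of immunoprecipitated chromatin (ChIP-seq), was where CES-1 sits on the embryonic genome. The tested material was anti-GFP immunoprecipitated chromatin (2 ChIP libraries), and the matching control was input DNA of the same extracts (2 Input libraries). All libraries came from embryos of strain OP174, genotype unc-119(ed3); wgIs174, a mixed population of males and hermaphrodites grown at 20 degrees Celsius and crosslinked with 2% formaldehyde. The transgene wgIs174 was introduced by bombardment and encodes ces-1 fused to TY1, EGFP and FLAG tags, with unc-119 as the rescue marker. The labels list no mutation of the worm's own ces-1 gene, so untagged CES-1 may be present beside the fusion, and 1 strain stands for the factor. The labels do not state whether the replicates came from separate cultures, and the spread between them may be technical.

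CES-1 belongs to the Snail family of zinc-finger transcription factors and is known in worms for keeping particular cells from undergoing programmed cell death, in which it acts as a repressor of the death activator gene egl-1. Worm chromosomes have no single centromere. Their autosomes are commonly divided into a centre, where recombination is rare and conserved genes are common, and arms, where recombination is frequent and repeats are common.

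A region here is an interval that the authors' peak caller reported, with a score of unstated scale and a peak number that gives its rank in its own list (1 is the best). The score has a ceiling that many regions share, and the peak number orders regions there. Coordinates are those of WormBase build WS220, counted from 1. The span of chromosome II, from 1 to 15276798, was divided into 3 equal parts, called left arm, centre and right arm, whose bounds were set by length and are not genetic bounds. No gene was assigned to any region, because the annotation at hand is of another build. The lists hold no read counts, so depth is unknown. No test over samples was run: there are 2 ChIP replicates and no second condition, and the smallest two-sided p that an exact permutation test of 2 values against 2 can give is 0.333. Values are therefore given in the combined list and in each replicate's own 8678 best-ranked nuclear regions, with the spread between replicates. Intervals are 95% Wilson intervals, which cover counting error only and treat neighbouring regions as independent, which they are not.

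Chromosome II held 14.9% of the combined regions (interval 14.2 to 15.7) on 15.2% of the span of the genome. Its share among replicates' own best-ranked regions was 15.0% in replicate 1 and 14.97% in replicate 2, so both replicates gave nearly the same number of regions, 1302 and 1299. Strong regions were present on chromosome II in about the same proportion, with 13 of the first 100 peak numbers, 72 of the first 500 and 143 of the first 1000. After overlapping regions were merged, 1201 blocks remained, which covered 474 kb or 3.10% of the span. On the other chromosomes the covered share ran between 2.15% and 4.24%.

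The best-ranked region on chromosome II, number 8 of the whole list, lay in the middle of the chromosome at 8589182 to 8589650. It was 469 bp wide and overlapped number 10 of both replicates, whose own intervals were 8589215 to 8589625 in replicate 1 and 8589188 to 8589619 in replicate 2. The replicate intervals were centred 4 and 12.5 bp from the centre of the combined one. The next, number 9, at 5844552 to 5845173, was 622 bp wide and held number 7 of replicate 1 and number 15 of replicate 2. This interval was listed again as number 7743, and each replicate had 2 regions in it, so the stretch held more than 1 peak in both.

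The third on the chromosome lay in the sparse left arm. Number 23, at 3502654 to 3503051, held number 17 of replicate 1 and number 33 of replicate 2, and its nearest neighbour was 16148 bp away. Number 41, at 10990372 to 10990885 in the right arm, was number 40 and number 48 in replicates 1 and 2. Number 55, at 9838523 to 9838884, stood alone, with 61284 bp to the nearest other region, and was number 73 and number 44 in replicates 1 and 2. Strong regions on chromosome II thus occurred in crowded and in empty surroundings.

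Others of the 10 best-ranked lay between 4 and 7 Mb. Number 66 lay at 4584313 to 4584693 and was number 74 and number 64 in replicates 1 and 2. Number 70 lay at 6113780 to 6114358, a 579 bp interval that the list gives a second time as number 2470. Number 82 lay at 5543358 to 5543954 and held number 51 of replicate 1 and number 123 of replicate 2, the widest gap in rank among the 10. The outermost members of the chromosome were of middle rank: the first, number 2256, lay at 698 to 831, and the last, number 4089, at 15267258 to 15267697. The remaining members of the 10 best-ranked lay near the ends, number 74 at 163261 to 163700 and number 77 at 14469979 to 14470401. Number 86, at 10563362 to 10563655, completed the 3 best-ranked of the right arm. For all of the 10 best-ranked regions, the overlapping peak of each replicate was at the score ceiling of its list.

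Regions were commonest in the centre of chromosome II and scarcest in its left arm. The left arm held 266 regions (20.6%), the centre 587 (45.4%, interval 42.7 to 48.1) and the right arm 441 (34.1%). Per Mb this was 52.2 in the left arm, 115 in the centre and 86.6 in the right arm. In replicate 1 the shares were 21.4%, 44.5% and 34.2%, and in replicate 2 they were 21.1%, 46.2% and 32.7%, in the same order. The left arm averaged 21.2% ± 0.183 and the centre 45.3% ± 1.22 (SD, n = 2 replicates), so the gap between them was far wider than the spread between replicates.

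The imbalance between the arms was wider than on any other chromosome. The right arm of chromosome II held 1.66 times as many regions as the left, while this ratio ran between 0.788 and 1.10 on the other 5. The replicates gave 1.60 and 1.55 for chromosome II, a mean of 1.58 ± 0.0351 (SD, n = 2), and 1.13 ± 0.0131 (SD, n = 2) for chromosome III, the next highest. The widest imbalance the other way, with more regions in the left arm, was on chromosome IV, at 0.7855 ± 0.00118 (SD, n = 2). The central share of 45.4% was above those of I, III, IV and X, and below the 48.6% of V. These are descriptions of single chromosomes, and the difference between chromosomes was not tested.

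**Figure D1:**
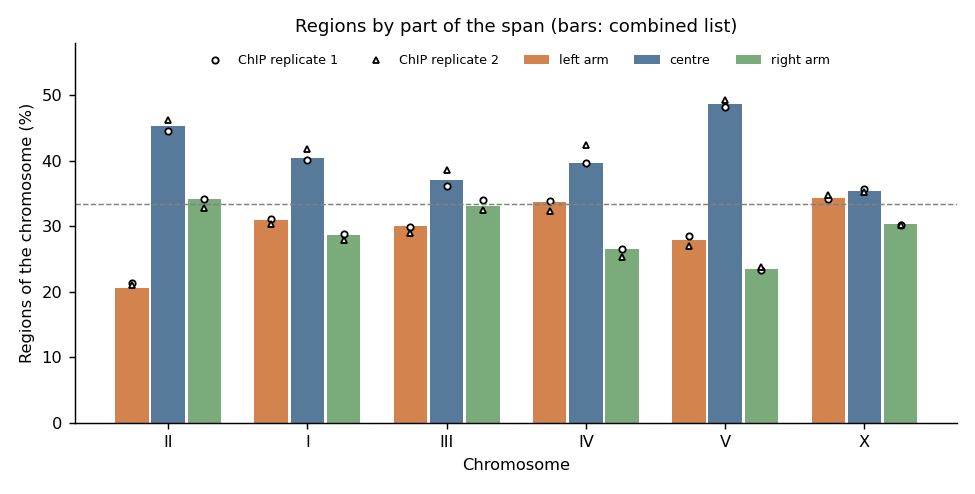
Share of each chromosome's regions in its left arm, centre and right arm (equal parts of the span), as bars for the combined list and open symbols for each replicate's own best-ranked regions; the dashed line is an even split. Chromosome II has the lowest left-arm share, 20.6%, and its replicate symbols lie close to the bars.

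Rank differed little between the parts. The score was at its ceiling in 706 of the 1294 regions (54.6%), against 53.3% of all combined regions. By part it was 54.9% in the left arm, 54.5% in the centre and 54.4% in the right arm, and the median peak numbers were 4356, 4228 and 4221. The left arm therefore had fewer regions, but those it had were spread over the ranks much as elsewhere: 27 of its 266 regions (10.2%) were among the first 1000 numbers, against 62 in the centre (10.6%) and 54 in the right arm (12.2%). In the replicates' own best-ranked regions the ceiling share in the left arm was a little lower, at 47.5% against 50.8% in the centre for replicate 1 and 62.0% against 66.7% for replicate 2.

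In 1 Mb windows the chromosome showed a low stretch, a broad high stretch and a second drop. From 1 to 4 Mb the combined list held 26, 33 and 44 regions per window, and from 4 to 12 Mb it held between 92 and 150. The first window, at the left tip, held 60. From 12 to 15 Mb the windows held 48, 68 and 89, so the count rose again after the second drop. Over 1 to 4 Mb the density was 34.3 per Mb, against 97.0 per Mb on the rest of the chromosome, a ratio of 0.354. The most regions, 150, lay in the window from 6 to 7 Mb, where the replicates' own best-ranked lists held 152 and 158.

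The edges of the high stretch differed in what the full replicate lists did. These lists reach far below the combined one in rank, with 4108 regions of replicate 1 and 4224 of replicate 2 on the chromosome. At the left edge, from 4 to 5 Mb to 3 to 4 Mb, all lists changed together. The window from 3 to 4 Mb held 44 combined regions against 92 from 4 to 5 Mb, a ratio of 0.478, and the full lists gave 139 against 323 in replicate 1 (0.430) and 152 against 300 in replicate 2 (0.507). Over all of 1 to 4 Mb the full lists were lowered less than the combined list. Their density ratios to the rest of the chromosome were 0.498 and 0.527 in replicates 1 and 2, against 0.354. The bounds of this stretch and of both edges were picked with the combined counts known. That choice by itself favours larger changes in the combined list.

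At the right edge the combined list dropped, and the full lists changed little. The window from 12 to 13 Mb held 48 combined regions against 110 from 11 to 12 Mb, a ratio of 0.436. The full lists held 319 against 279 regions in replicate 1 (ratio 1.14) and 292 against 317 in replicate 2 (0.921). The share of full-list regions that overlapped the combined list was 18.2% and 18.8% from 12 to 13 Mb in replicates 1 and 2, against 45.2% and 39.7% from 11 to 12 Mb. It was at its highest, 54.7% and 51.1%, from 6 to 7 Mb. Low shares were not particular to the right edge: from 1 to 2 Mb they were 19.5% and 23.5%.

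**Figure D2:**
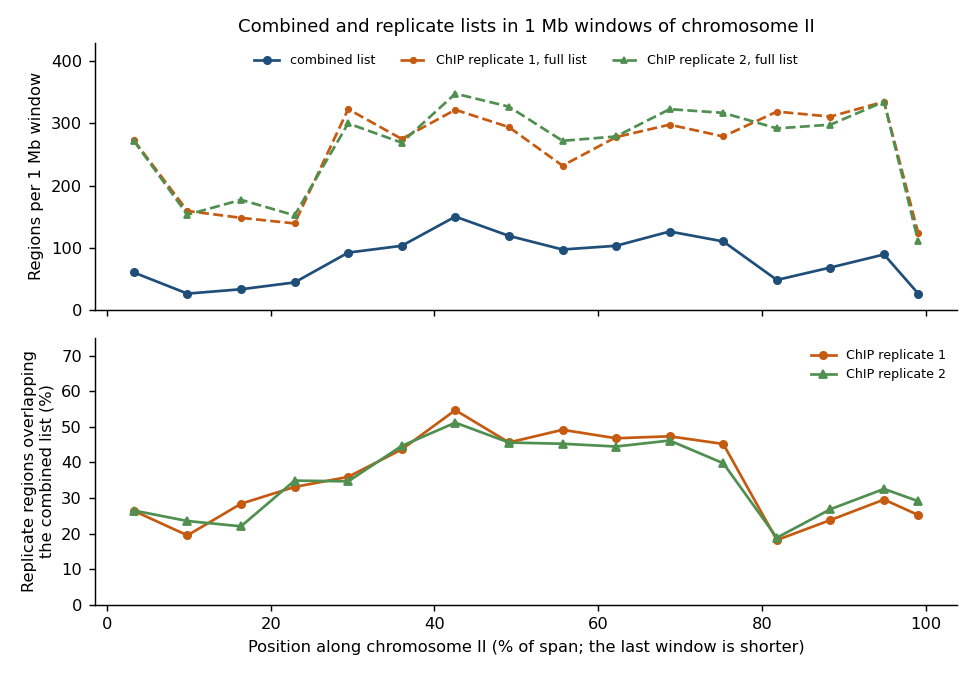
Top: regions per 1 Mb window along chromosome II in the combined list and in each replicate's full list; bottom: share of each replicate's regions that overlap the combined list. Position is in percent of the span, and the last window is shorter than 1 Mb. The full lists fall with the combined list near the left end, whereas in the window from 12 to 13 Mb the combined list drops to 48 regions and the full lists hold 319 and 292.

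Regions of the replicates outside the combined list were spread differently from its members. In replicate 1, 2598 of the 4108 regions overlapped no combined region, of which 28.9% lay in the left arm, 28.1% in the centre and 43.1% in the right arm. In replicate 2 it was 2675 of 4224, with 28.3%, 30.6% and 41.0%. The centre thus held the largest share of the combined regions, and the right arm the largest share of those left out. The right arm also held the largest share of the full lists, 39.4% in replicate 1 and 38.3% in replicate 2. Regions that overlap the combined list are absent from this set by its making, which lowers its count where combined regions are dense.

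The densest 100 kb window of chromosome II, from 6800001 to 6900000, held 38 combined regions. Of these, 33 lay in its left part, from 6800001 to 6850000, where 30 merged blocks covered 24.4% of the sequence. The next densest 50 kb window on the chromosome held 22 regions and the median one 3. On the other chromosomes the densest 50 kb window held between 17 and 21. Their densest 100 kb windows held between 23 and 32, closer to the 38 of chromosome II. From 6800001 to 6850000, replicates 1 and 2 listed 59 and 53 regions in their full lists.

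The 38 regions of the 100 kb window were spread over the ranks much as those of the whole chromosome. Their best peak number was 265, for the region at 6835469 to 6835805, which held number 292 of replicate 1 and number 259 of replicate 2. The median in the 100 kb window was 4353.5 and the last number 8500, and 4 of the 38 were among the first 1000. On the whole chromosome the median was 4274, and 143 of the 1294 regions were among the first 1000. The score was at its ceiling in 52.6% of the window's regions, against 54.6% on the chromosome. Merged blocks stood a median of 0.883 kb apart, and 30 of the 38 regions had another within 1 kb. All 38 were found in both replicates.

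Of the other dense windows, that from 6100001 to 6200000 held 31 combined regions, with 29 and 29 in the replicates' own best-ranked lists. Its best-ranked member was number 70, described above. The window from 11000001 to 11100000 held 26 (28 and 22 in replicates 1 and 2), led by number 196 at 11088078 to 11088516. The windows from 7800001 to 7900000 and from 10700001 to 10800000 held 25 each. The first of these had 28 in both replicates, and the second had 18 in replicate 1 and 24 in replicate 2.

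Together these 5 windows held 145 regions, or 11.2% of the chromosome's members on 3.27% of its span. Across all 153 windows the replicates' own counts differed by 2 or fewer in 127 and by 7 at most. Spearman's rho between the replicates over windows was 0.942 and Pearson's r 0.946. The windows share the same libraries, so this describes the lists and has no p. There were 8 windows with 20 or more regions, and 0 of them lay wholly in the left arm.

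**Figure D3:**
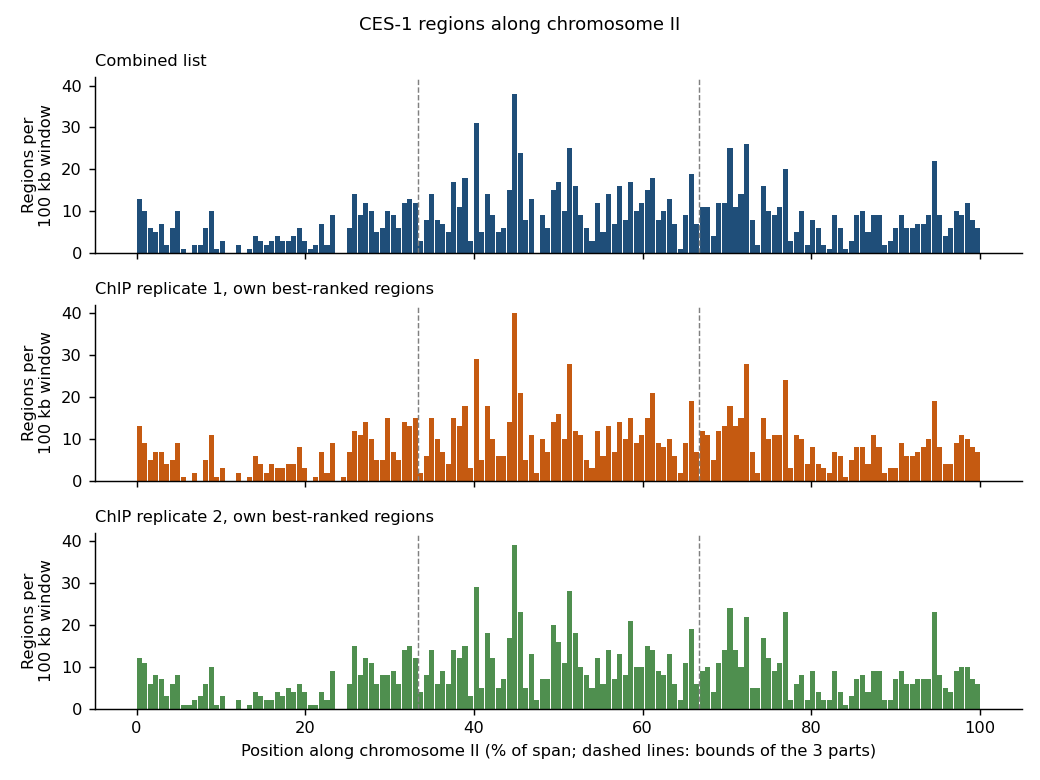
Regions per 100 kb window along chromosome II (position in percent of the span) in the combined list and in the own best-ranked regions of ChIP replicates 1 and 2; dashed lines separate left arm, centre and right arm. The tallest bar, 38 regions in the combined list, stands at the same window in all 3 panels, with 40 and 39 in the replicates.

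The empty stretches lay mostly in the left arm. Of 12 stretches over 100 kb without a combined region, 7 were centred there, 2 in the centre and 3 in the right arm, and together they made up 1979 kb. The 5 longest were all in the left arm. The longest ran from 1520264 to 1819926 (299.7 kb) and held 10 regions of replicate 1 and 12 of replicate 2, of which the best were numbers 8135 and 11260. The third longest, from 1821220 to 2059005 (238 kb), began 1293 bp farther on, so both stretches were parted only by a short piece that held 2 combined regions.

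The second longest, from 3554003 to 3808215 (254 kb), held 4 and 2 replicate regions, and the fifth, from 3119383 to 3265323 (146 kb), also held 4 and 2. The fourth, from 873710 to 1084893 (211 kb), held more, 9 in replicate 1 and 19 in replicate 2. It was the only one of the 5 with a replicate region at the score ceiling, number 4634 of replicate 2. In the left arm as a whole the full lists held 210.1 regions per Mb in replicate 1 and 211 in replicate 2. In the centre the longest stretch, from 7185854 to 7326148 (140.3 kb), held 15 regions in each replicate, with best numbers 3334 and 4944. In the right arm the longest, from 12806002 to 12939139 (133 kb), held 6 and 7 regions, with best numbers 11184 and 11314. Of 7 windows of 100 kb with no combined region, 6 lay in the left arm and 0 in the right arm.

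Regions often stood close together. Of the 1294 regions, 578 (44.7%) had another within 1 kb, edge to edge, against 42.4% of all combined regions. The share was 38.7% in the left arm, 51.3% in the centre and 39.5% in the right arm. Among them, 186 regions overlapped another, and these formed 93 pairs and no larger block. Of the pairs, 17 were in the left arm, 41 in the centre and 35 in the right arm. In 9 pairs both members had the same interval.

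The best-ranked pairs were those of numbers 9 and 7743, 41 and 7263, 70 and 2470, 74 and 6854, and 82 and 292. In the last of these both members were strong. At the other extreme, 8 regions had no other within 50 kb, and 6 of them lay in the left arm. Number 1473, at 873474 to 873709, was the most remote, 99.2 kb from the next. Number 136, at 2564883 to 2565262, was the best-ranked of those in the left arm, at number 71 in replicate 1 and number 206 in replicate 2.

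Widths ran between 110 and 679 bp on chromosome II. A width of 440 bp was given to 884 regions (68.3%), against 68.9% of all combined regions, and such a common value may be a set width rather than a measured extent. In replicate 1 the commonest width was also 440 bp, and in replicate 2 it was 436 bp. Among the 588 regions below the score ceiling, 569 (96.8%) were 440 bp wide. At the ceiling 315 of 706 (44.6%) were, and 368 were narrower.

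Over the first 2000 peak numbers, widths other than the common one became smaller. In the first 500 peak numbers 71 of 72 regions had a width other than 440 bp, with a median of 367 bp. In numbers 501 to 1000 these had a median of 298.5 bp, in 1001 to 1500 of 231.5 bp and in 1501 to 2000 of 197 bp. Beyond that the median was 171 bp up to number 3000 and 168 bp up to the end of the ceiling, and the 19 such regions below the ceiling had a median of 214 bp. The share at 440 bp was 1.30% in numbers 1001 to 1500, 19.8% in 1501 to 2000 and 50.4% in 2001 to 3000. The widest region was number 87, 679 bp at 10373432 to 10374110, an interval also listed as number 2428. The next widest were the repeated intervals of numbers 9 and 82.

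**Figure D4:**
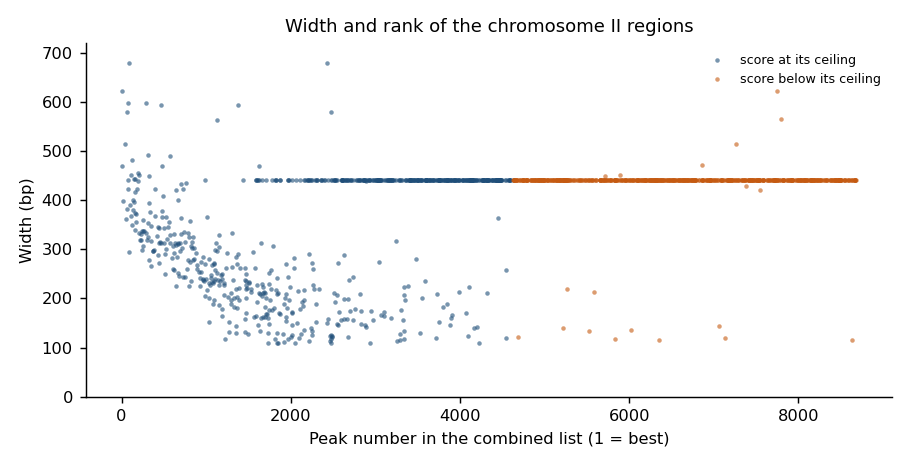
Width of each chromosome II region in bp against its peak number in the combined list, coloured by whether the score is at its ceiling. Widths other than 440 bp shrink over the first 2000 numbers, and nearly all regions below the ceiling lie on the line at 440 bp.

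Support in the replicates was counted as an overlap of at least 1 bp. Of the 1294 regions, 1274 (98.5%, interval 97.6 to 99.0) overlapped a region of both full lists, against 98.7% of all combined regions. The combined list was made from these replicates, so this is no independent check. Replicate 1 lacked 15 regions, replicate 2 lacked 5, and 0 were in neither. By part, 265 of 266 regions were in both in the left arm, 575 of 587 in the centre and 434 of 441 in the right arm. In 674 regions (52.1%) each replicate had exactly 1 overlapping region.

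Where both replicates had a region, the intervals lay close together. The centre of the nearest replicate region was a median of 11 bp from that of the combined region in replicate 1 and 9 bp in replicate 2. In 944 of the 1274 regions (74.1%) both distances were within 50 bp. Spearman's rho between the replicates' peak numbers was 0.840 over these regions, and is given without a p because regions are not independent. The numbers differed by a median of 1.36-fold, and in 1111 regions (87.2%) by no more than 2-fold. Each region took the best number that overlapped it in each replicate. Overlapping regions could therefore take the same numbers, as those ranked 9 and 7743 did (7 and 15), and such values entered more than once. The combined list was made from these replicates, so the agreement in rank is no independent check. The share within 2-fold was 86.8% among the 259 best-ranked members, 93.0% among the next 259 and 77.2% among the last 259.

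**Figure D5:**
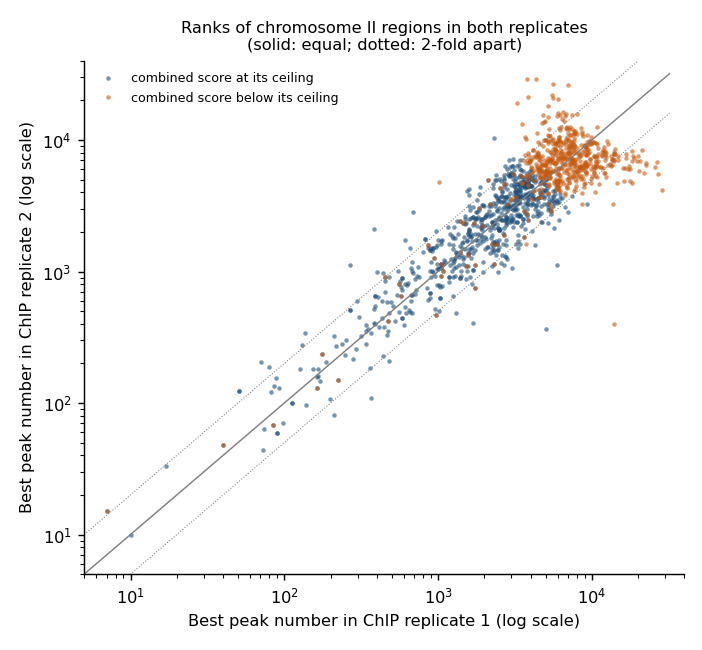
Best peak number of each chromosome II region in ChIP replicate 1 (x axis) and replicate 2 (y axis), both on log scales, for the 1274 regions found in both. Points follow the line of equal rank, and 87.2% lie within the dotted lines that mark a 2-fold difference. Overlapping regions can share the same replicate peaks and so the same point.

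Some regions were far apart in rank. The largest ratio belonged to number 8222, at 9054748 to 9055187, which overlapped number 13914 of replicate 1 and number 398 of replicate 2, a 34.96-fold difference. The replicate 2 region, at 9054638 to 9054936, shared 189 bp with it. Number 3182, at 6148692 to 6148851, overlapped number 5016 of replicate 1 and number 364 of replicate 2. That replicate 2 region shared only 74 bp with it, and number 4170 of replicate 2 overlapped it by 132 bp. In numbers 8222 and 3182 a strong replicate 2 peak thus met the combined region by part of its width. This did not hold for the next in this direction, number 7109, at 6144279 to 6144718 (6.93-fold). It overlapped number 28733 of replicate 1 by 436 bp and number 4146 of replicate 2 by 420 bp. The cause of the differences was not tested. In the opposite direction the largest ratio was that of number 6263, at 6834705 to 6835144 in the densest window, with number 3791 of replicate 1 and number 29213 of replicate 2 (7.71-fold). In all, 19 of the 1274 regions differed by more than 4-fold.

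Of the 15 regions missing from replicate 1, 4 were at the score ceiling, a smaller share than the 54.6% of all regions on the chromosome. Most of the missing regions were thus below the ceiling, and those described first here are the best-ranked of them. Number 326, at 7072608 to 7073055, was number 461 in replicate 2, and the nearest replicate 1 region was 10833 bp away. Number 787, at 10350417 to 10350695, was number 950 in replicate 2, with 7328 bp to the nearest region of replicate 1. Number 2533, at 3118943 to 3119382, was number 2903 in replicate 2, with 32687 bp to the nearest region of replicate 1, and it bordered the fifth longest empty stretch. Numbers 326, 787 and 2533 thus each had a peak at the score ceiling in replicate 2 and no overlapping region in replicate 1. The same held for some lower-ranked ones, such as number 6101, which was number 3416 in replicate 2. In 8 of the 15 a replicate 1 region lay within 1 kb.

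Of the 5 regions missing from replicate 2, 4 had a replicate 2 region within 1 kb. Number 2247, at 9107060 to 9107331, was number 1416 in replicate 1, and replicate 2 had a region 94 bp beyond its edge. Number 4873, at 11795167 to 11795606, and number 5856, at 9549580 to 9550019, were numbers 5214 and 8271 in replicate 1. The nearest replicate 2 regions lay 381 and 865 bp away.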

How the data were processed

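ChIP-seq region lists were used: 1 combined list and 1 list for each of the 2 ChIP replicates. Per the file headers, the build is WormBase WS220, and the source field names SPP (a peak caller) and IDR (irreproducible discovery rate). How the combined list was made, the aligner, and any versions or thresholds were not given in the sources used here. The authors' score, deposited for each region, is of unstated scale and was used only within a list, to mark regions at its ceiling and, in an alternative, to rank them in place of peak numbers. Below the ceiling the peak number was closely but not strictly ordered by falling score, with a Spearman's rho at least 0.996 in size. No Input list was used.

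All values were computed in Python 3.11.15 (pandas 2.3.3, numpy 2.4.6, scipy 1.17.1, and matplotlib 3.10.9 for plots). A region was placed by its midpoint in windows and parts of the span, which ran from 1 to the last region of any list. Stretches were measured between merged regions. Depth is unknown, so no value has a depth-based error. Regions named are the 10 best-ranked, the 3 best-ranked of each part, the 5 densest 100 kb windows, the 5 longest stretches, the 5 best-ranked overlapping pairs, the 5 widest, those farthest apart in rank and those missing from 1 replicate. Members and rules were chosen with earlier results of these data known. The windows of 1 Mb, the 50 kb detail, the bins of width, the longest stretches of the centre and the right arm and the isolated regions were added after values were seen. The steps for overlaps, merging, parts of the span, windows, stretches and neighbour distances were tested on simulated regions and recovered 9 of 9 known answers. The simulated regions did not overlap within a list, unlike some real ones. The steps for ranks, widths and the score ceiling were not tested in this way. Alternatives covered overlap rules, merging, window sizes, ranks and leaving out a replicate.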

Additional observations from a re-analysis of the deposited data

How the results depend on the processing

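Across 44 alternatives for 10 summary values, 18 kept their value within the limit set for them: the SD between replicates, a 95% interval where there was none, or 1.5 times for the count in the densest window. That SD was taken from the same replicate values that stand for leaving out a replicate. The count of 18 is therefore partly set by construction. The ceiling difference between centre and outer parts, close to 0 in the combined list, changed sign in 3 of 4 alternatives. With each replicate's own best-ranked regions in place of the combined list, which is the only way in which 1 replicate could be left out, the share of regions on chromosome II ranged between 14.97% and 15.0%. The central share ranged between 44.5% and 46.2%, the densest window between 39 and 40 regions, the ceiling share between 50.0% and 65.7%, and its centre minus outer difference between 1.40 and 1.86 percentage points, against -0.0824 in the combined list. The longest stretch ranged between 280.5 and 299.7 kb, the share within 1 kb of another between 42.1% and 46.5% and the median width between 436 and 440 bp. Merging gave a chromosome share of 14.9% and a share within 1 kb of 35.9%. The best-ranked 4339 regions gave a chromosome share of 15.2%, 19 regions in the densest window, a longest stretch of 369 kb, 99.2% in both replicates, 24.2% within 1 kb, a rank correlation of 0.814 and a median width of 354 bp; having fewer regions lowers counts by construction. With the middle 50% of the span as centre, its share was 66.8% and the ceiling difference 2.30 points. Windows of 200 kb held up to 62 regions. Under 50% reciprocal overlap, 82.6% of regions were in both replicates, under centres within 200 bp 97.1%, and 79.2% against the replicates' 8678 best-ranked regions. Neighbours lay within 500 bp for 28.9% and within 2 kb for 60.5%. The rank correlation of the replicates was 0.663 with scores and 0.595 over all overlapping replicate pairs. For the changes not set by construction the cause was not tested. No paired analysis was possible because no result here comes from a test, and the ChIP and Input libraries, which share replicate numbers, were not compared. Without read counts, the number of regions missed for want of depth cannot be estimated.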

Other observations

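Some strong replicate peaks of chromosome II have no counterpart in the combined list. Pairs of replicate regions at the score ceiling in both replicates that overlap no combined region numbered 6. The best-ranked lay at 6741359 to 6741798 in replicate 1 (number 2057) and at 6741513 to 6741686 in replicate 2 (number 1664), 6.53 kb from the nearest combined region. The next was at 10538027 to 10538136 (number 1997) in replicate 1 and at 10538001 to 10538169 (number 2529) in replicate 2. The others of the 5 best-ranked were numbers 2215 and 3001, 2771 and 3647, and 3334 and 5620 in replicates 1 and 2. The last of these, at 7199852 to 7200291 in replicate 1, lay inside the longest empty stretch of the centre.

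The strongest regions outside the combined list came from replicate 2 alone and were picked out after their values were seen. Number 144 of replicate 2, at 8162205 to 8162509, overlapped no region of replicate 1 and lay 3850 bp from the nearest combined region. Number 542, at 11239008 to 11239247, and number 714, at 7111661 to 7111904, had no replicate 1 region either. In replicate 1 the best-ranked region outside the combined list was number 1997. At the score ceiling, 37 of 853 replicate 2 regions on the chromosome were outside the combined list, and 26 of these overlapped no replicate 1 region. In replicate 1 it was 11 of 651, and 4 of these overlapped no replicate 2 region. The ceiling reached number 5628 in replicate 2 and number 4148 in replicate 1, so these counts are of unlike depth. The 37 replicate 2 regions had a median number of 4303. The matching shares over all chromosomes were not computed.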
